A study of Mus musculus with 8 samples.

Results

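Immediate early and dissociation stress genes were followed in sorted cells of the mouse molar. The 33 genes were taken by name: 19 transcription factor genes of the AP-1, Egr, Nr4a, Klf and related families, 8 genes of feedback and growth arrest, and 6 heat shock genes. The deposited table holds 56748 genes, of which 21508 had enough counts to be tested, and all 33 were among those. RNA was sequenced in 4 libraries labelled cHet, genotype Ctnnb1(+/-), and 4 labelled cKO, genotype Ctnnb1(-/-). Ctnnb1 encodes beta-catenin, and cHet stands for a conditional heterozygote, so that neither group is intact for the gene. Both groups came from mandibular molars at postnatal day 10 after tamoxifen at day 3, and both were sorted by flow cytometry for the red protein tdTomato after enzymes had been used to separate the cells. The cell type is given as CXCL12+ apical papilla cells, the tissue as dental pulp, and the protocol speaks of dental follicle cells. The Cre driver, strain, sex and any pooling of animals are not given in the labels.

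Immediate early genes are switched on within minutes of a stimulus, without new protein synthesis, largely by kinase cascades that act on factors already present, such as SRF and CREB. Fos and Jun proteins pair to form AP-1, and several early products, among them the phosphatase Dusp1 and the mRNA decay factor Zfp36, shut the response down again. Heat shock genes answer damaged protein through the factor Hsf1: Hspa1a and Hspa1b encode inducible Hsp70, and Hspa8 encodes its constitutive relative. Members of both groups are known to be induced while solid tissue is digested to single cells.

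Promoter sequences are shown for 6 of the genes: the early genes Fos, Dusp1 and Zfp36, and the heat shock genes Hspa1a, Hspa1b and Hspb1. Their log2 changes from cHet to cKO were 1.52, 0.08 and 1.12, and 1.24, 1.22 and 0.055, so that Dusp1 and Hspb1 stood apart. Any part of the sequences in these values was not tested. Of the 33 genes, 27 matched an entry of the RefSeq promoters on the build GRCm38.p6, with 34 windows in all. The counts rest on another build, GRCm39, so the coordinates only place the sequence. Each line gives the 150 bases before an annotated start, on the strand of the gene, with positions counted back from the start. For Fos (chr12:85473740-85473889, plus strand) capitals mark the short CRE TGACGT at −66 to −61 and the TATA box TATAAA at −33 to −28. For Dusp1 (chr17:26508473-26508622, minus strand) they mark the full CRE TGACGTCA at −143 to −136, and for Zfp36 (chr7:28379229-28379378, minus strand) a CArG box, the core of the SRF site, at −58 to −49. For Hspa1a (chr17:34972157-34972306, minus strand), Hspa1b (chr17:34959239-34959388, minus strand) and Hspb1 (chr5:135887769-135887918, plus strand) they mark the heat shock pair GAANNTTC.
Fos: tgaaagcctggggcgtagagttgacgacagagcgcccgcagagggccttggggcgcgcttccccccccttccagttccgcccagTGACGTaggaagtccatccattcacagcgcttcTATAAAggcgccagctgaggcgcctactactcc
Dusp1: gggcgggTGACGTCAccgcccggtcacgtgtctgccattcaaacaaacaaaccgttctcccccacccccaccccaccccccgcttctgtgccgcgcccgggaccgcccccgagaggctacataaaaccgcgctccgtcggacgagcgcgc
Zfp36: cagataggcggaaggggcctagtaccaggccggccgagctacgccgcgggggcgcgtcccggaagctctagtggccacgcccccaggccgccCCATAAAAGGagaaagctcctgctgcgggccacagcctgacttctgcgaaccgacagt
Hspa1a: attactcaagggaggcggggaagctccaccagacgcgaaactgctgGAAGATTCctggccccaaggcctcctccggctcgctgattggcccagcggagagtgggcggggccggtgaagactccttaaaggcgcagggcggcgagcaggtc
Hspa1b: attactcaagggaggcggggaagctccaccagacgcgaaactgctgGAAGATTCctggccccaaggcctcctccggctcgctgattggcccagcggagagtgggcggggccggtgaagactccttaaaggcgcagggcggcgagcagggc
Hspb1: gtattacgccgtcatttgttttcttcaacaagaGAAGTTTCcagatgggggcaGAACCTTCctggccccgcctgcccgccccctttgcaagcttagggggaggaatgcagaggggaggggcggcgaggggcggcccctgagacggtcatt

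Motifs were searched on both strands in the 250 bases before each start. A gene was counted if any of its windows held the motif, with 34 windows for 27 genes, whereas the percentages count single windows. The gene counts and the percentages are therefore in unlike units and were not compared by a test. The short CRE TGACGT, which every full TGACGTCA also holds, was found for 7 of the 27 genes (Atf3, Btg2, Dusp1, Egr2, Fos, Maff and Nr4a3) and in 6.47% of all 32851 windows. The full CRE was found for 3 of them (Btg2, Dusp1 and Maff) and in 1.55% of all windows. A CArG box was found for 2 genes, Egr2 and Zfp36, and in 1.47% of all windows. The pair GAANNTTC was found for 5 genes (Fosl2, Hspa1a, Hspa1b, Hspb1 and Jun) and in 6.69% of all windows, and the opposed pair TTCNNGAA for 1 gene, Egr2, and in 7.17%. The AP-1 site TGACTCA was found for 0 of the 27 genes and in 4.46% of all windows, and the TATA box TATAAA for 3 (Fos, Gadd45b and Nr4a2) and in 12.4%. These matches describe letters in a window and not bound sites. Sequence outside the 250 bases was not searched, so a gene without a match may hold the motif elsewhere. The windows of Hspa1a and Hspa1b were identical at 247 of 250 bases; the counts of this near-identical gene pair are uncertain where reads could fit both, so they are also given as a sum.

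The libraries held 44444033 to 50051392 counts each, and mitochondrial genes took between 0.206% and 0.340% of them. Libraries go by their column names, which could be matched to a group and to no single sample. The labels do not say that libraries came from separate animals, so the spread that p-values measure may be no more than technical. Ctnnb1 stood at 258 ± 40.2 CPM (counts scaled to 1000000 per library) in cHet and 277 ± 39.2 CPM in cKO (SD, n = 4 each; exact permutation p = 0.486), a whole-gene count that need not show the deletion of some exons. Summed markers of the labelled cells were higher in cKO: 12 mesenchyme markers summed to between 3579.6 and 12194 CPM in cHet and between 13824 and 27462 CPM in cKO, and 10 apical papilla markers to between 518 and 1354 against 2756 and 5131 CPM (exact p = 0.0286 for each, the smallest that 4 against 4 libraries allow). Gene lists were chosen with earlier results of these data known, so these p-values are no independent support. Of the mesenchyme markers 10 and of the papilla markers 9 had positive changes. The others were Lum (log2 −0.66), Dcn (−1.04, adjusted p 0.257 by edgeR and 0.0492 by DESeq2) and Tac1 (−1.65, 0.108 by edgeR and 0.00140 by DESeq2), with all cKO libraries below all cHet libraries for Tac1. Cxcl12 itself lay between 66.4 and 268 CPM in cHet and between 491 and 1001 CPM in cKO. Against the label, 10 olfactory neuron markers summed to between 7706 and 14808 CPM in cHet and between 7238 and 8557 CPM in cKO (exact p = 0.114), more than the papilla markers in every library. The 8 epithelium markers, among them the enamel genes Ambn, Amelx and Enam, summed to between 2609 and 11783 CPM in cHet. In cKO they summed to between 4647 and 8728 CPM (exact p = 0.857), and they exceeded the papilla markers in every library but cKO15. Neutrophil and macrophage markers stood at 20012 and 2909 CPM in cHet12 and at no more than 1472 and 764 CPM in the other libraries. Endothelial markers stayed between 15.9 and 43.7 CPM. Of the 68 markers in 7 lists, 0 were at 0 in all 8 libraries, while the neutrophil marker Elane was at 0 in cHet14 and in all 4 cKO libraries. In bulk samples, fewer cells of a type and less RNA per cell cannot be told apart, and the part of these markers in the results below was not tested.

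**Figure D1:**
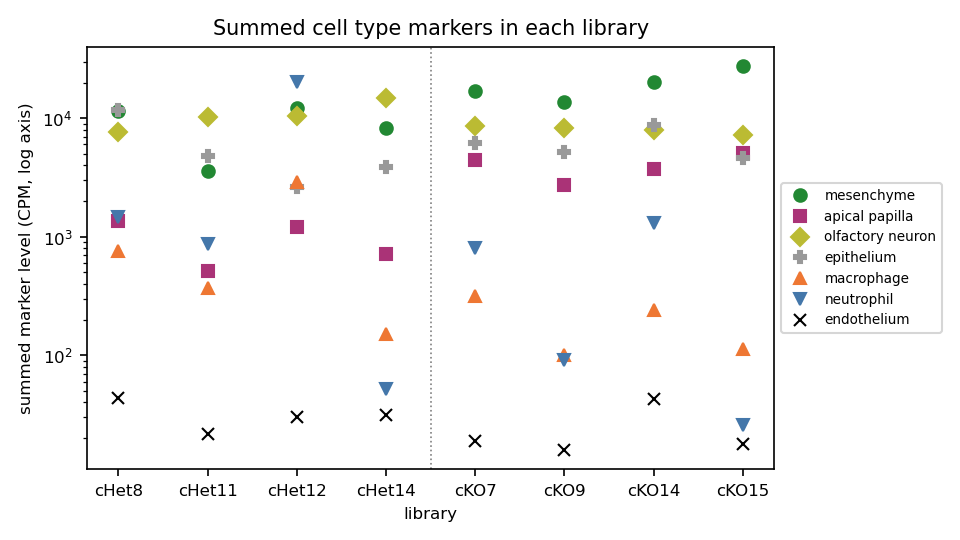
Summed CPM (log axis) of 7 lists of cell type markers in each library, with cHet left and cKO right of the dotted line. Mesenchyme and apical papilla markers of all 4 cKO libraries lie above those of all 4 cHet libraries, and neutrophil and macrophage markers peak in cHet12.

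The 33 genes together took 0.848%, 0.585%, 0.832% and 0.645% of all counts in cHet8, cHet11, cHet12 and cHet14, and 1.37%, 0.731%, 1.13% and 1.49% in cKO7, cKO9, cKO14 and cKO15, with cKO9 inside the cHet range and the other cKO libraries above it. Fos alone made up between 16.1% and 22.8% of the counts of the 33 genes in cHet and between 26.1% and 36.0% in cKO. The fitted change from cHet to cKO was positive for 27 of the 33 genes (81.8%) and for 47.5% of all tested genes, with medians of 0.52 and −0.027 on the log2 scale. edgeR's quasi-likelihood test, with Benjamini-Hochberg adjustment over all tested genes, called 0 of the 33 at an adjusted p under 0.05. It called 1.08% of all genes higher in cKO and 0.0558% lower. At an unadjusted p under 0.05, 16 of the 33 (48.5%) were higher and 0 lower, against 10.8% and 6.33% of all genes.

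The other tools called some of the genes. DESeq2 called 13 higher (39.4%, against 7.99% of all genes) and limma voom 11 (33.3%, against 6.25%), and each called 0 lower, against 4.07% and 1.53% of all genes. Both called 10 genes: Fos, Fosb, Jun, Junb, Klf2, Ier2, Zfp36, Socs3, Gadd45b and Hspa1a. Without cKO9, edgeR called 7 higher (21.2%, against 3.67%): Fos, Jun, Junb, Ier2, Ier5, Socs3 and Gadd45b. It then called 0 lower, against 0.648% of all genes. With libraries scaled to their mesenchyme markers, the median of all genes moved from −0.027 to −1.40, 23 of the 33 genes changed sign, and 28 of the 33 lay above that median. This scaling used the summed counts of the 12 markers, most of which came from 3 collagen genes. In cKO, Col3a1, Col1a1 and Col1a2 averaged 7604, 5558 and 3413 of 19618 CPM. The sum itself differed between the groups, and Lum and Dcn of the same list had negative changes.

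**Figure D2:**
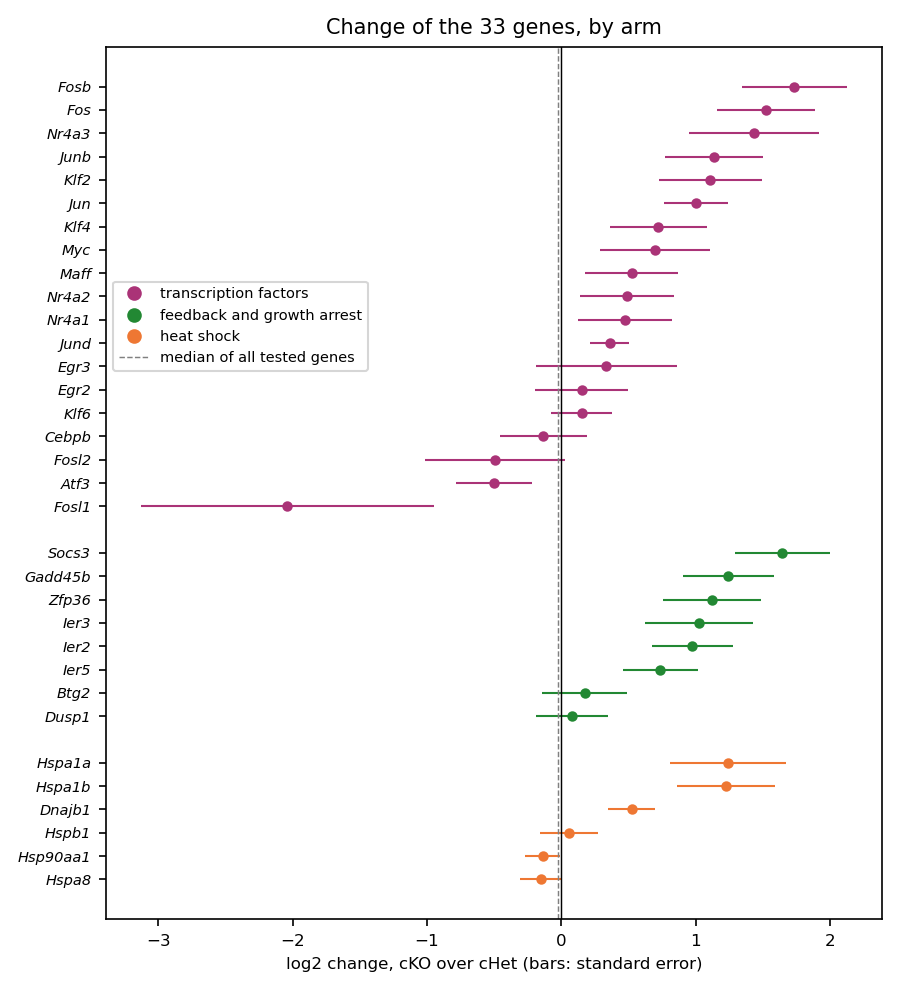
Log2 change from cHet to cKO (points) with its standard error (bars) for the 33 genes in 3 arms, under TMM scaling; the dashed line is the median of all tested genes, −0.027. Fosb, Socs3 and Fos lie farthest to the right and Dusp1, Hspb1, Hsp90aa1 and Hspa8 near 0; with libraries scaled to mesenchyme markers, 23 of the points change sign.

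Among the 7 Fos and Jun genes, whose products make up AP-1, 5 had positive changes and the median was 1.0 on the log2 scale; with mesenchyme scaling Fos and Fosb stayed positive, and Jun, Junb and Jund turned negative. Fos (ENSMUSG00000021250.14) stood at 1859.6, 864, 1739 and 1253 CPM in cHet8, cHet11, cHet12 and cHet14, and at 5031, 1899, 3775 and 5733 CPM in cKO7, cKO9, cKO14 and cKO15; this order of libraries is kept throughout. The lowest cKO library, cKO9, was just above the highest cHet library, cHet8, and the other 3 cKO libraries were far above both. The log2 change of Fos was 1.52 (SE 0.37), 2.88-fold, with an adjusted p of 0.0913 by edgeR, 0.00128 by DESeq2 and 0.0206 by limma voom, and between 0.0256 and 0.260 by edgeR with 1 library left out.

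Fosb, which encodes a close relative of Fos that also pairs with Jun proteins, stood at 52.1, 24.4, 83.5 and 34.8 CPM in cHet and at 124, 155, 130.3 and 239 CPM in cKO. The groups did not overlap, and cKO9 was not the lowest of its group (log2 1.73, SE 0.39, edgeR adjusted p = 0.0791). Jun stood at 753, 524, 575 and 588 CPM in cHet and at 1179.6, 775, 1179 and 1747 CPM in cKO, again with cKO9 just above cHet8 (log2 1.0, SE 0.24, edgeR adjusted p = 0.0890). Groups that do not overlap, with cKO above, were found for 5 of the 33 genes (15.2%): Fos, Fosb, Jun, Socs3 and Hspa1b. The same held for 6.46% of all tested genes. Groups with cKO below were found for 0 of the 33 and 3.68% of all genes.

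Junb, whose product is another Jun partner of Fos, stood at 470.0, 241, 549 and 330.2 CPM in cHet and at 1072, 407, 835 and 1188 CPM in cKO. The groups overlapped only through cKO9, which lay below cHet8 and cHet12 (log2 1.14, SE 0.37, edgeR adjusted p = 0.176). Jund, the more steadily expressed Jun gene, lay between 95.4 and 139.9 CPM in cHet and between 129.5 and 176 CPM in cKO (log2 0.36, SE 0.15, edgeR adjusted p = 0.258). The other Fos relatives had negative fitted changes and their highest level in cHet12, the library with the highest neutrophil and macrophage markers. Fosl2 stood at 50.6 CPM in cHet12 and between 8.71 and 20.7 CPM in the other 7 libraries, and its log2 change of −0.50 (SE 0.52) became 0.32 without cHet12. Fosl1 was barely detected, with 2.29 CPM in cHet12 and between 0.0470 and 0.425 CPM in the others, and its log2 change of −2.04 (SE 1.09) became −0.35 without cHet12.

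**Figure D3:**
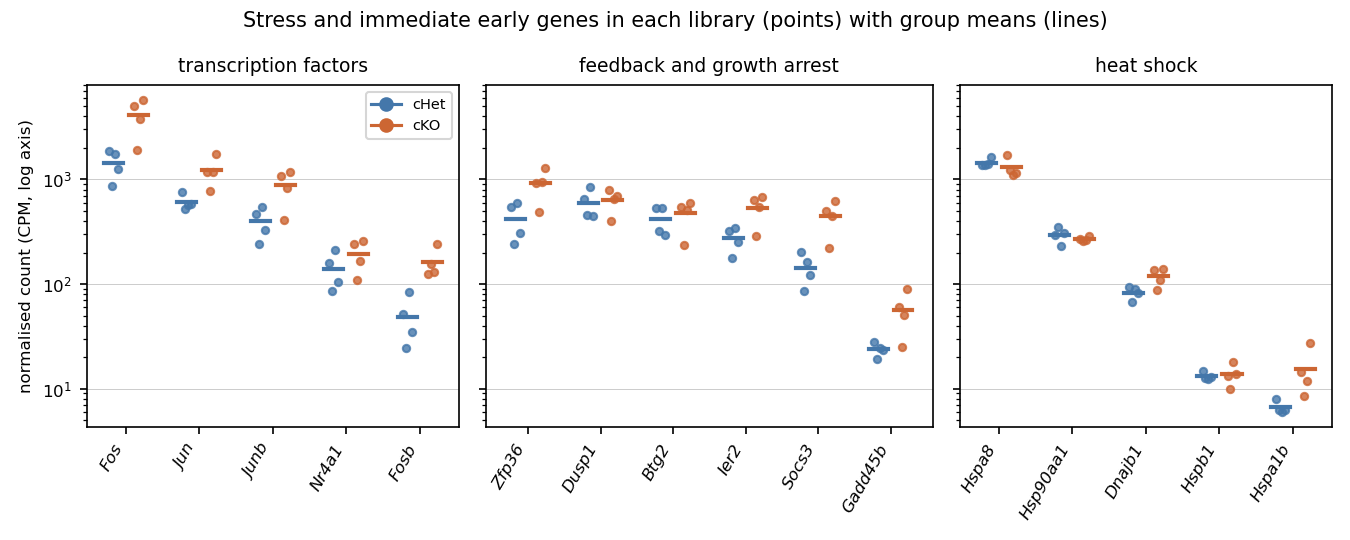
Normalised counts (CPM, log axis) of 16 of the 33 genes in each library (points), with the mean of each group of 4 (lines), under TMM scaling. Fos, Jun, Fosb, Socs3 and Hspa1b show groups that do not overlap, whereas the points of Dusp1, Btg2, Hspa8 and Hsp90aa1 intermingle.

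The remaining transcription factor genes differed from one another. Nr4a1, an orphan nuclear receptor gene of the early response, stood at 158, 85.0, 209.7 and 104 CPM in cHet and at 243, 109, 164 and 256 CPM in cKO, and the groups overlapped over most of their range (log2 0.47, SE 0.35, edgeR adjusted p = 0.546). Its relatives Nr4a2 and Nr4a3 had log2 changes of 0.49 (SE 0.35) and 1.44 (SE 0.49), the latter at between 0.405 and 1.84 CPM. The Krüppel-like factor genes Klf2, Klf4 and Klf6 had log2 changes of 1.11 (SE 0.38), 0.72 (SE 0.36) and 0.15 (SE 0.23). The early zinc finger factor genes Egr2 and Egr3 had log2 changes of 0.15 (SE 0.35) and 0.34 (SE 0.52). For Egr2 the highest and the lowest of the 8 libraries were both in cKO, with 77.7 CPM in cKO7 and 24.7 CPM in cKO9. Myc, a growth factor-induced regulator of cell growth, lay between 15.7 and 41.3 CPM in cHet and between 21.0 and 72.5 CPM in cKO (log2 0.70, SE 0.41). The small Maf gene Maff had a log2 change of 0.52 (SE 0.35).

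Atf3, a stress-induced factor of the ATF and CREB family, was among the 6 genes with a negative fitted change, the others being Fosl1, Fosl2, Cebpb, Hsp90aa1 and Hspa8. It lay between 35.6 and 56.4 CPM in cHet and between 16.7 and 41.2 CPM in cKO (log2 −0.50, SE 0.28, edgeR adjusted p = 0.413). Cebpb, a leucine zipper factor gene that is also strong in myeloid cells, stood at 151 CPM in cHet12 and between 56.4 and 104 CPM elsewhere, and its log2 change of −0.13 (SE 0.32) became 0.27 without cHet12. Of the 19 transcription factor genes, 15 had positive changes. Their median was 0.49 on the log2 scale, against −0.027 for all tested genes, and −0.76 against −1.40 with mesenchyme scaling.

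All 8 genes of feedback and growth arrest had positive changes under TMM scaling, with a median of 1.0 on the log2 scale. With mesenchyme scaling the median was −0.28, against −1.40 for all genes, and of the 8 only Socs3 stayed positive. Socs3, whose product blocks cytokine signalling through JAK and STAT, had the smallest p of the 33 genes. It stood at 200.3, 85.0, 162 and 122 CPM in cHet and at 494, 219, 447 and 616 CPM in cKO. Every cKO library was above every cHet library. The log2 change was 1.64 (SE 0.36), 3.13-fold, with an adjusted p of 0.0720 by edgeR, 4.512e-05 by DESeq2 and 0.0144 by limma voom, and between 0.0239 and 0.211 by edgeR with 1 library left out. Gadd45b, a gene of stress-induced growth arrest, stood at 28.1, 19.3, 24.5 and 23.4 CPM in cHet and at 60.6, 24.9, 50.6 and 89.4 CPM in cKO. Its cHet libraries were close together, and of the cKO libraries only cKO9 lay among them (log2 1.24, SE 0.34, edgeR adjusted p = 0.124).

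Zfp36, which encodes the mRNA decay factor tristetraprolin, stood at 546, 242, 589 and 309 CPM in cHet and at 933, 493, 955 and 1285 CPM in cKO. Again cKO9 alone lay within the cHet range (log2 1.12, SE 0.36, edgeR adjusted p = 0.178). Ier2, an early gene for a nuclear protein, stood at 319, 176, 344 and 251 CPM in cHet and at 641, 285, 542 and 674 CPM in cKO, with the same library inside the cHet range (log2 0.97, SE 0.30, edgeR adjusted p = 0.163). The early response genes Ier3 and Ier5 had log2 changes of 1.02 (SE 0.40) and 0.74 (SE 0.28).

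The other 2 genes of the arm showed little difference in their means. Dusp1, which encodes a phosphatase of MAP kinases, stood at 652, 452, 848 and 447 CPM in cHet and at 787, 402, 653 and 695 CPM in cKO. Its highest library was cHet12 and its lowest cKO9 (log2 0.080, SE 0.27, edgeR adjusted p = 0.919). Btg2, an antiproliferative gene, stood at 536, 318, 530.0 and 296 CPM in cHet and at 549.6, 239, 508 and 599 CPM in cKO, with cKO libraries at both ends of the range (log2 0.17, SE 0.32, edgeR adjusted p = 0.840). A p that misses the threshold does not show that these genes were equal in both groups.

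Ratios of counts within a library do not depend on how libraries are scaled. The following were chosen after the values had been seen and are given with no test. Fos gave 2.85, 1.91, 2.05 and 2.80 counts per Dusp1 count in cHet and 6.39, 4.73, 5.79 and 8.25 in cKO. The groups did not overlap, and cKO9, near the cHet libraries in its Fos level, was here well above them. Per Egr2 count there were 27.3, 24.3, 31.9 and 27.9 Fos counts in cHet and 64.8, 76.9, 69.1 and 83.3 in cKO, with each group close together. Per Btg2 count, Fos lay between 2.71 and 4.24 in cHet and between 7.43 and 9.57 in cKO. Socs3 gave between 0.188 and 0.307 counts per Dusp1 count in cHet and between 0.546 and 0.888 in cKO, and Zfp36 between 0.534 and 0.838 against 1.19 and 1.85. Genes of large change were here set over genes of small change, so the choice of pairs favoured separation. Fos per count of the collagen gene Col1a2 lay between 0.597 and 1.06 in cHet and between 0.963 and 1.82 in cKO, and these groups overlapped, as did those of Fos per Jun count.

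The 6 heat shock genes differed in their values. The median of its 6 changes was 0.29 on the log2 scale, and −1.09 with mesenchyme scaling against −1.40 for all genes. Hspa1b stood at 8.02, 6.26, 6.03 and 6.28 CPM in cHet and at 14.3, 8.44, 11.9 and 27.5 CPM in cKO. The groups did not overlap, with cKO9 next to cHet8 and cKO15 far above the rest. Its log2 change was 1.22 (SE 0.36), with an adjusted p of 0.152 by edgeR, 0.0123 by DESeq2 and 0.0771 by limma voom, and between 0.0548 and 0.331 by edgeR with 1 library left out. Hspa1a stood at 6.76, 2.88, 3.06 and 2.57 CPM in cHet and at 8.70, 4.68, 10.2 and 12.6 CPM in cKO, where cHet8 was above cKO9 (log2 1.24, SE 0.43, edgeR adjusted p = 0.202). Summed, the pair gave 10.5 ± 2.88 CPM in cHet and 24.6 ± 11.3 CPM in cKO (both SD, n = 4), with a log2 change of 1.23 (SE 0.35, edgeR adjusted p = 0.134). Dnajb1, the Hsp40 partner of Hsp70, stood at 92.8, 66.9, 89.4 and 82.1 CPM in cHet and at 137, 87.5, 110.3 and 141 CPM in cKO, and only cKO9 lay among the cHet libraries (log2 0.52, SE 0.18, edgeR adjusted p = 0.194). With mesenchyme scaling Hspa1a, Hspa1b, Dnajb1 and Hspb1 all turned negative.

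The other 3 heat shock genes had small fitted changes. Hspa8 stood at 1384, 1358, 1401 and 1649 CPM in cHet and at 1712, 1241, 1112 and 1154 CPM in cKO, and cKO libraries took both ends of the range (log2 −0.15, SE 0.16, edgeR adjusted p = 0.688). Hsp90aa1, for the cytosolic Hsp90 alpha, stood at 297, 347, 233 and 304 CPM in cHet and at 267, 258, 262 and 286 CPM in cKO, with all 4 cKO libraries inside the cHet range (log2 −0.14, SE 0.13, edgeR adjusted p = 0.640). Hspb1, for a small heat shock protein, stood at 14.9, 12.8, 12.3 and 12.8 CPM in cHet and at 13.1, 9.94, 18.1 and 13.7 CPM in cKO (log2 0.055, SE 0.22, edgeR adjusted p = 0.933); its promoter window shown above holds a pair of GAANNTTC matches. Per Hspa8 count there were between 0.0492 and 0.0670 Dnajb1 counts in cHet and between 0.0705 and 0.122 in cKO, without overlap. Hspa1a and Hspa1b together gave between 0.537 and 1.07 counts per 100 Hspa8 counts in cHet and between 1.06 and 3.48 in cKO, and these groups overlapped through cHet8 and cKO9.

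The level of an arm was taken as the mean log2 CPM of its genes. The transcription factor level was 5.30, 4.70, 5.74 and 4.90 in cHet and 5.87, 5.41, 5.46 and 5.92 in cKO. The heat shock level was 5.81, 5.47, 5.44 and 5.50 in cHet and 6.10, 5.56, 6.01 and 6.28 in cKO. In cHet12 the transcription factor level was the highest of its group and the heat shock level the lowest. The first minus the second, in which a scaling factor of a library nearly cancels, was −0.509, −0.771, 0.296 and −0.604 in cHet and −0.225, −0.152, −0.545 and −0.362 in cKO. The means were −0.40 ± 0.47 in cHet and −0.32 ± 0.17 in cKO (SD over 4 libraries), a difference between groups smaller than the spread between libraries. Only cHet12, the library with the highest neutrophil and macrophage markers, was above 0, and it weighed on the cHet mean and SD. The other cHet libraries lay between −0.771 and −0.509. The feedback level exceeded the heat shock level by 1.60 ± 0.35 in cHet and 2.01 ± 0.30 in cKO (SD over 4 libraries), with overlapping groups.

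**Figure D4:**
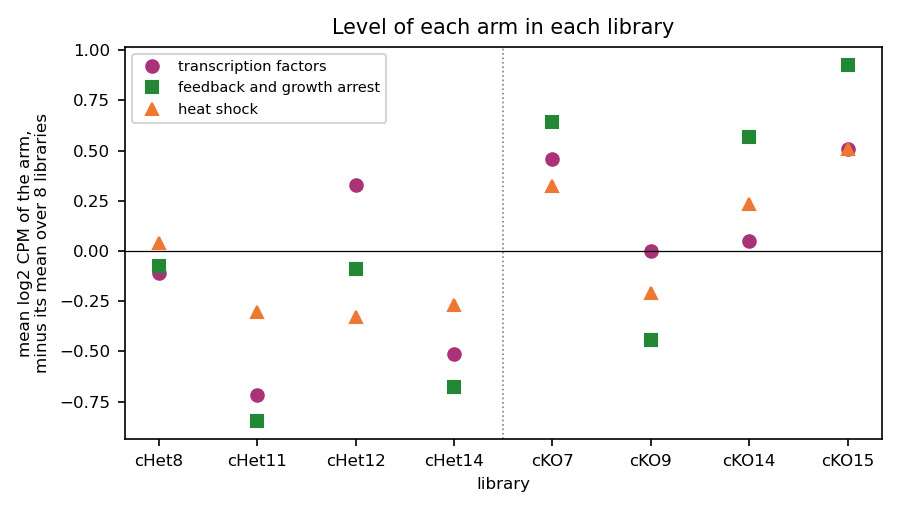
Mean log2 CPM of each arm in each library, minus its mean over the 8 libraries, under TMM scaling; cHet lies left and cKO right of the dotted line. All 3 arms are above their mean in cKO7, cKO14 and cKO15 and below it in cHet11 and cHet14, while in cHet12 only the transcription factors are above it.

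Relations between single genes across the 8 libraries were computed for 4 pairs on log2 CPM. Fos and Hspa1b, an early gene and a heat shock gene, gave Pearson's r = 0.905 (exact p = 0.000397, 0.00154 adjusted over 4) and Spearman's rho = 0.929 (exact p = 0.00223, 0.00893 adjusted). Without cKO7 and cKO15, the libraries farthest from the median of Fos, r was 0.868. Dnajb1 and Hspa1b gave Pearson's r = 0.895 (exact p = 0.000769, 0.00154 adjusted over 4) and Spearman's rho = 0.810 (exact p = 0.0218, 0.0290 adjusted), with r = 0.777 without the same libraries. Fos and Myc gave Pearson's r = 0.891 (exact p = 0.00409, 0.00546 adjusted over 4) and Spearman's rho = 0.810 (exact p = 0.0218, 0.0290 adjusted), with r = 0.729 without them. Fos and its feedback gene Dusp1 gave Pearson's r = 0.606 (exact p = 0.117, 0.117 adjusted over 4) and Spearman's rho = 0.405 (exact p = 0.327, 0.327 adjusted), with r = 0.450 without them. Both groups are pooled in these values, and the exact p treats the 8 libraries as exchangeable. A difference between groups in both genes therefore raises r and lowers p. The groups did not overlap for Fos and Hspa1b (log2 1.52 and 1.22), while Dusp1 had a log2 change of 0.080. Those of Dnajb1 and Myc overlapped (log2 0.52 and 0.70). The pooled values cannot separate a relation between 2 genes from the group differences. A relation within groups was not tested, because 4 libraries are too few for a value within each group.

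**Figure D5:**
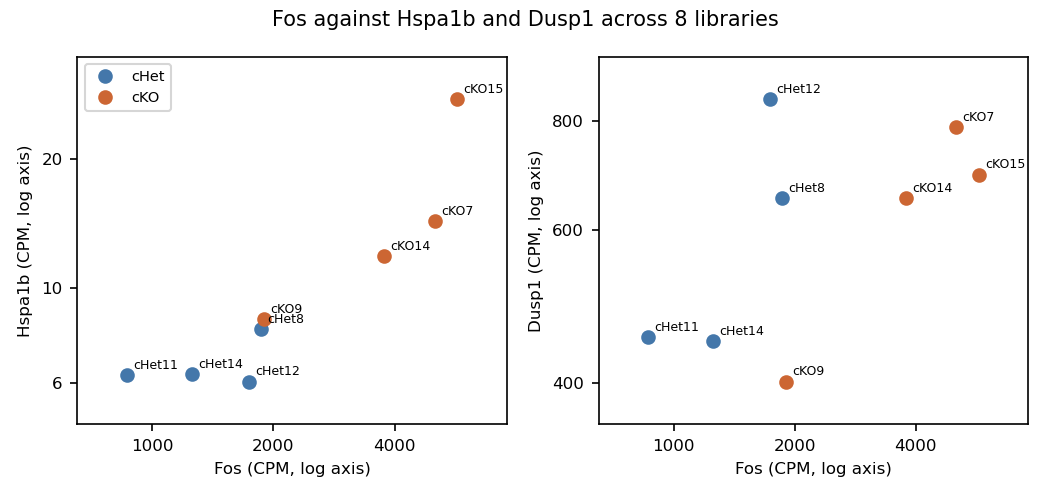
Fos against Hspa1b (left) and against Dusp1 (right) in the 8 libraries, in CPM on log axes, with both groups pooled in each r. Hspa1b was high where Fos was high, with cKO9 beside cHet8 (r = 0.905), whereas Dusp1 was highest in cHet12, a library with less Fos than any cKO library (r = 0.606).

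The same libraries recurred at the ends of the range. In cKO, cKO9 was the lowest library for 25 of the 33 genes, including all 8 feedback genes and 5 of the 6 heat shock genes, and cKO15 was the highest for 22. In cHet, cHet11 was the lowest for 18 and cHet8 the highest for 16, while cHet12 was the highest for 13, among them Fosb, Fosl2, Junb, Cebpb, Dusp1 and Zfp36. The lowest cKO sum of mesenchyme markers, 13824 CPM, was also in cKO9, the highest, 27462 CPM, in cKO15, and the lowest of all, 3579.6 CPM, in cHet11; the part of these markers in the order of the libraries was not tested. The SD of log2 CPM within groups had a median of 0.60 over the transcription factor genes, 0.55 over the feedback genes and 0.27 over the heat shock genes. Over all tested genes it was 0.45, and over the 13242 genes that averaged 5 CPM or more it was 0.30.

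Levels of different genes were compared as CPM per kilobase of exon, with exon lengths from GENCODE M21. Fos had the highest level of the 33 genes in both groups, 608 CPM per kilobase in cHet and 1747 in cKO. Hspa8 followed in cHet with 337 and was the fifth in cKO with 303, behind Jun, Junb and Ier2 with 383, 380.4 and 352. Dusp1 was the fourth in cHet with 181 and the seventh in cKO with 192. The inducible genes Hspa1b and Hspa1a were low in both groups, with 2.37 and 1.29 CPM per kilobase in cHet and 5.54 and 3.05 in cKO.

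Further genes of the same pathways were read from lists of pathway members. Among 35 other immediate early genes, 24 had positive changes with a median of 0.34 on the log2 scale. edgeR called 0 of the 35. At an unadjusted p under 0.05, 7 (20%) were higher and 2 (5.71%) lower, against 10.8% and 6.33% of all genes. DESeq2 called 5 higher (14.3%, against 7.99%) and limma voom 3 (8.57%, against 6.25%), the latter near the share over all genes. The smallest p belonged to Errfi1, a feedback inhibitor of the EGF receptor, which stood at 87.5, 57.8, 77.8 and 82.4 CPM in cHet and at 138, 99.8, 144 and 184 CPM in cKO without overlap (log2 0.89, SE 0.20, edgeR adjusted p = 0.0805). The serum-induced kinase genes Sgk1 and Plk2 had log2 changes of 0.85 (SE 0.20, edgeR adjusted p = 0.0899) and 1.39 (SE 0.35, edgeR adjusted p = 0.1000), also without overlap.

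Among 19 upstream factors and kinases of these responses, 12 had positive changes, the median was 0.023, and edgeR called 0. At an unadjusted p under 0.05, 4 (21.1%) were higher and 0 lower, against 10.8% and 6.33% of all genes. DESeq2 called 2 higher (10.5%, against 7.99%) and limma voom 1 (5.26%, against 6.25%), both near the shares over all genes. The SRF partner genes Elk1, Elk3 and Mrtfb had the smallest p, with log2 changes of 0.62 (SE 0.17), 1.0 (SE 0.35) and 0.71 (SE 0.26). Among 24 other heat shock genes, 7 had positive changes and the median was −0.046. edgeR called 0 of the 24. At an unadjusted p under 0.05, 1 (4.17%) was higher and 1 lower, below the 10.8% and 6.33% of all genes. DESeq2 called 1 higher and 2 lower, where it called 7.99% and 4.07% of all genes, and limma voom 1 and 1, where it called 6.25% and 1.53%. Bag3, an Hsf1 target gene for a partner of Hsp70, stood at 29.7, 12.7, 22.5 and 26.1 CPM in cHet and at 74.6, 29.0, 64.7 and 76.5 CPM in cKO, where only cKO9 reached down to the cHet libraries (log2 1.43, SE 0.35, edgeR adjusted p = 0.0977). Hspa4l and Dnajb6 had log2 changes of −0.60 (SE 0.20) and −0.18 (SE 0.081).

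Among 14 genes of the unfolded protein response, the answer of the endoplasmic reticulum to misfolded protein, 7 had positive changes and the median was −0.046. edgeR called 1 of them higher (7.14%, against 1.08% of all genes) and 0 lower, against 0.0558%. At an unadjusted p under 0.05, 4 (28.6%) were higher and 0 lower, against 10.8% and 6.33% of all genes. The gene called by edgeR was Calr, for the calcium-binding chaperone calreticulin. Calr rose from 405, 367, 394 and 326 CPM in cHet to 562, 546, 585 and 661 CPM in cKO (log2 0.66, SE 0.11, edgeR adjusted p = 0.0399), and the groups did not overlap. Calr was called in 7 of 17 other settings. With 1 library left out, edgeR called it only without cKO9 (adjusted p between 0.0266 and 0.162), and with mesenchyme scaling its log2 change was −0.74, above the median of −1.40. DESeq2 called 2 genes of this list higher (14.3%, against 7.99% of all genes) and limma voom 1 (7.14%, against 6.25%). The chaperone genes Pdia4 and Hspa5 had log2 changes of 0.61 (SE 0.21, edgeR adjusted p = 0.200) and 0.43 (SE 0.17, edgeR adjusted p = 0.239).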

How the data were processed

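Gene counts were deposited as 1 table of raw counts by the authors, with Ensembl gene IDs and 8 library columns. Per the labels' protocols, RNA was isolated with the PicoPure kit and amplified with SMART-Seq v4. Per the submitters' processing notes, Trim Galore and STAR were used with GRCm39 (mm39); no source used here gives versions, the counting tool or the annotation. Amplified reads without molecular identifiers are not independent molecules.

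Symbols were matched for 52073 of 56748 IDs, and the ID with the most counts was kept for each symbol. Genes were filtered with filterByExpr by group, scaled by TMM and tested with edgeR 4.0.16 (quasi-likelihood F test, cKO against cHet, n = 4 each, Benjamini-Hochberg over all 21508 genes tested), in R 4.3.3. The SE of a log2 change was approximated from the F statistic. CPM are TMM-normalised, and log2 CPM used a prior count of 2. Single values per library were tested by exact two-sided permutation over 70 assignments. Alternatives were DESeq2 1.42.0, limma voom (limma 3.58.1) with quality weights, other scalings and filters, robust dispersions, and each library left out. edgeR was tested on simulated data. The members and gene lists were chosen with earlier results of these data known. Values in every library are given, per arm, for the 4 genes of highest mean CPM and the 2 of smallest p, and for pathway lists up to 3 genes of smallest p are named; Hspa1a, as the copy of Hspa1b, was added. Ratios within libraries were chosen after the values were seen.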

Additional observations from a re-analysis of the deposited data

Results flagged for a closer look

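A single library far from the other 3 of its group was found in 4 of 66 groups of 4 (33 genes in both genotypes), where chance gives about 1 in 20. Hspa1a stood at 6.76 CPM in cHet8 and between 2.57 and 3.06 CPM in the other cHet libraries. Its near-identical copy Hspa1b stood at 8.02 CPM in cHet8 and between 6.03 and 6.28 CPM in the others, so both inducible Hsp70 genes were highest in the same library. Reads could fit both copies, so these values may not be independent of each other. Hspa8 stood at 1649 CPM in cHet14 and between 1358 and 1401 CPM in the others. Fosl1 stood at 2.29 CPM in cHet12 and between 0.0964 and 0.302 CPM in the others; neutrophil markers summed to 20012 CPM in the same library, and their part in this value was not tested.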

How the results depend on the processing

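edgeR called 0 of the 33 genes higher and 0 lower with RLE factors, library size alone, mesenchyme scaling, both other filters, robust dispersions, and the mitochondrial and 20 most abundant genes left out. DESeq2 called 13 higher and limma voom 11, and with 1 library left out the count lay between 0 and 7, the 7 being without cKO9. The cause of these differences was not tested. Over the whole table edgeR called 232 genes higher and 12 lower, DESeq2 1709 and 871, limma voom 1344 and 328, mesenchyme scaling 0 and 0, and edgeR without cKO9 816 and 144. Over 17 other settings, 523 of 558 fitted changes of the 33 genes kept their sign; the filter at 1 CPM dropped Fosl1 and Nr4a3, and the removal of abundant genes dropped Fos, itself among them. DESeq2 gave no adjusted p for Fosl1. With mesenchyme scaling, which moved the median of all genes to −1.40, the medians of the transcription factor, feedback and heat shock arms were −0.76, −0.28 and −1.09, and the log2 changes that turned negative were Jun −0.41, Junb −0.12, Jund −0.94, Maff −0.78, Egr2 −1.15, Egr3 −0.85, Nr4a1 −0.76, Nr4a2 −0.70, Klf2 −0.069, Klf4 −0.41, Klf6 −1.16, Myc −0.57, Ier2 −0.30, Ier3 −0.25, Ier5 −0.77, Zfp36 −0.12, Btg2 −1.15, Dusp1 −1.20, Gadd45b −0.18, Hspa1a −0.10, Hspa1b −0.28, Dnajb1 −0.81 and Hspb1 −1.36. With limma voom Fosl2 and Cebpb turned to 0.015 and 0.090, and with library size alone Dusp1 and Hspb1 to −0.016 and −0.047. With 1 library left out, changes crossed 0 for Fosl2 (−0.76 to 0.32), Egr2 (−0.038 to 0.40), Egr3 (−0.013 to 0.75), Cebpb (−0.31 to 0.27), Dusp1 (−0.045 to 0.29) and Hspb1 (−0.11 to 0.18). No paired analysis was possible because the column numbers match no sample title and the groups share only the number 14. In counts simulated from these libraries, edgeR recovered 62% of 4-fold and 91% of 16-fold changes among 20562 genes tested, and 7 of its 160 calls were false. No smaller change was simulated, and the largest rise among the 33 genes was 3.325-fold, for Fosb. The simulation therefore does not show how often rises of the size seen here would be called. Depth limits Fosl1 and Nr4a3 most, at under 3 CPM in every library.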
